A study of Manihot esculenta with 9 samples.

Results

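Mature leaves of cassava treated with abscisic acid (ABA) were compared with mature leaves of untreated seedlings, gene by gene, across the whole transcriptome. ABA is the hormone that plants make when water is short. All seedlings were wild-type plants of the line TM60444, 60 days old, raised from stem cuttings in sterile bottles of MS medium, a standard salt medium for plant tissue culture. The ABA group had received 50 μmol/L ABA in the medium for 48 h, and the MS control group had received MS medium alone. The comparison holds 6 of the 9 RNA-seq libraries of the series, 3 for ABA and 3 for the MS control. The other 3 libraries are leaves of seedlings given 7% PEG6000, an osmotic agent, for 48 h, and they served here as another reference. The study's methods state 3 biological replicates, but whether each library came from a separate plant is not stated. The p-values therefore measure the spread between these libraries, which may be technical. ABA was given through the medium and not applied to the leaf itself.

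Total read counts were 13923803 to 16378389 in the MS control and 14850183 to 15690202 under ABA. The table lists 33033 genes, of which 29313 had a read in the ABA or MS libraries and 23984 passed edgeR's filter on low counts and were tested. Levels are given as FPKM, the authors' fragment count scaled by gene length and library depth, which sets genes of different length on 1 scale. Differences are log2 fold changes of the read counts, ABA minus MS, with their standard error (SE). Each has a p from the quasi-likelihood test of edgeR, adjusted by Benjamini-Hochberg over all genes tested, and rises and falls are named where that adjusted p was under 0.05. Cassava genes are named by the nearest Arabidopsis gene that the deposited table gives for them, and several cassava genes can share 1 nearest gene, so a shared name does not make them the counterpart of that gene. The genes named below have 206 different nearest genes, 146 of which have more than 1 tested copy, and in 50 of these some copies rose and some fell, so the value of a copy does not stand for the others of its name. Roles given for a gene are those known from Arabidopsis unless stated otherwise. The sources used here do not say how reads that fit several copies were assigned, and a near-identical copy may hold some of a gene's reads. The pectin methylesterases, the subject of the study whose methods are cited here and which used these libraries, are left out.

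ABA is sensed inside the cell by the PYR/PYL/RCAR receptors. With ABA bound, a receptor blocks the clade A protein phosphatases 2C (PP2Cs), which otherwise keep the SnRK2 kinases switched off. The freed kinases phosphorylate ABF/AREB transcription factors and the ion channels that close stomata. In leaves the hormone is known for closing stomata, for switching on proteins and sugars that protect drying cells, for slowing growth and for hastening the loss of chlorophyll in older leaves.

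The direction of every difference below rests on the labels, and an exchange between the MS and PEG libraries cannot be told apart in these files. Dehydrins and other late embryogenesis abundant (LEA) proteins keep drying cells intact. The summed level of their 33 listed genes, 20 of them tested, was 1107 to 1476 FPKM in the libraries labelled MS. It was 2018 to 2082 FPKM under ABA and 799.8 to 817 FPKM in the libraries labelled PEG. For 1 of these genes (Manes.05G061300) the MS libraries differed widely, with 3510, 8 and 14 reads. The libraries labelled PEG, the osmotic treatment, thus had the lowest level of these genes. For this reason each group of genes is also given with PEG as the reference. Of the same 23984 genes, 35.6% rose and 39.1% fell against PEG. Both comparisons use the same 3 ABA libraries, so they are not independent of each other.

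Markers of leaf carbon fixation (5 copies of *RBCS* and *RCA*) summed to a high level in every library, and the sum differed between the groups. Of the 5, 4 fell and 1 was low throughout and did not pass (Manes.06G023400, -0.04 (SE 0.11, edgeR adjusted p = 0.776)). Their summed level was 4044 to 4566 FPKM in the MS control, 1066 to 1176 FPKM under ABA and 8703 to 9217 FPKM under PEG. Markers of dividing cells summed to 2.77 to 3.58 FPKM in the MS control, 17.7 to 19.9 FPKM under ABA and 67.5 to 68.7 FPKM under PEG, and all 9 of them rose under ABA. Shoot meristem markers summed to 5.59 to 5.93, 42.1 to 42.4 and 56.2 to 58.3 FPKM in the same order, with all 8 tested of 11 higher under ABA, while 2 of the 11 had no read in the MS libraries and 2 none in the ABA libraries. Guard cell markers summed to 38.9 to 41.9 FPKM in the MS control, 18.7 to 19.1 FPKM under ABA and 44.5 to 48.5 FPKM under PEG. Under ABA 2 of 7 were higher than in the MS control and 4 lower. Seed markers summed to 114 to 119 FPKM in the MS control, 76.1 to 78.5 FPKM under ABA and 28.7 to 30.6 FPKM under PEG. Of these 13 markers 4 were tested, with 0 higher under ABA and 3 lower. Phloem markers summed to 123 to 132, 159 to 166 and 86.8 to 86.9 FPKM in the same order, with all 4 tested higher. Xylem markers summed to 24.0 to 24.8, 30.7 to 32.2 and 30.9 to 32.5 FPKM, with 7 of 10 tested higher and 2 lower. For root markers the sums were 7.27 to 7.50, 4.98 to 5.53 and 19.2 to 20.4 FPKM, with 2 of 3 tested higher and 1 lower. In such bulk libraries fewer cells of a type and less RNA per cell cannot be told apart, and the part these markers have in the differences below was not tested.

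ABA-treated leaves differed from the MS control at most genes. Of the 23984 genes tested, 7885 rose, which is 32.9%, and 8009 fell, which is 33.4%. The FPKM ranges of the groups did not overlap in 30.9% of genes with ABA higher and in 39.6% with ABA lower. At least 2-fold rises made up 10.6% of the genes tested and at least 2-fold falls 8.79%. The median log2 fold change over all genes tested was -0.00, so the shift of a list is read against a centre at 0. The lists below are read against 32.9% and 33.4%. The percentages of members that rose and fell in 51 lists ranged from Calvin cycle genes, of which 0% rose and 89.7% fell, to genes for breakdown of branched-chain amino acids, of which 89.5% rose and 0% fell. Within groups the libraries were close, although in 157 genes the highest and lowest library of a group differed at least 8-fold in reads. Only genes with at least 100 reads in the highest library were counted. Leaving these genes out moved no list median by 0.1 or more.

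**Figure D1:**
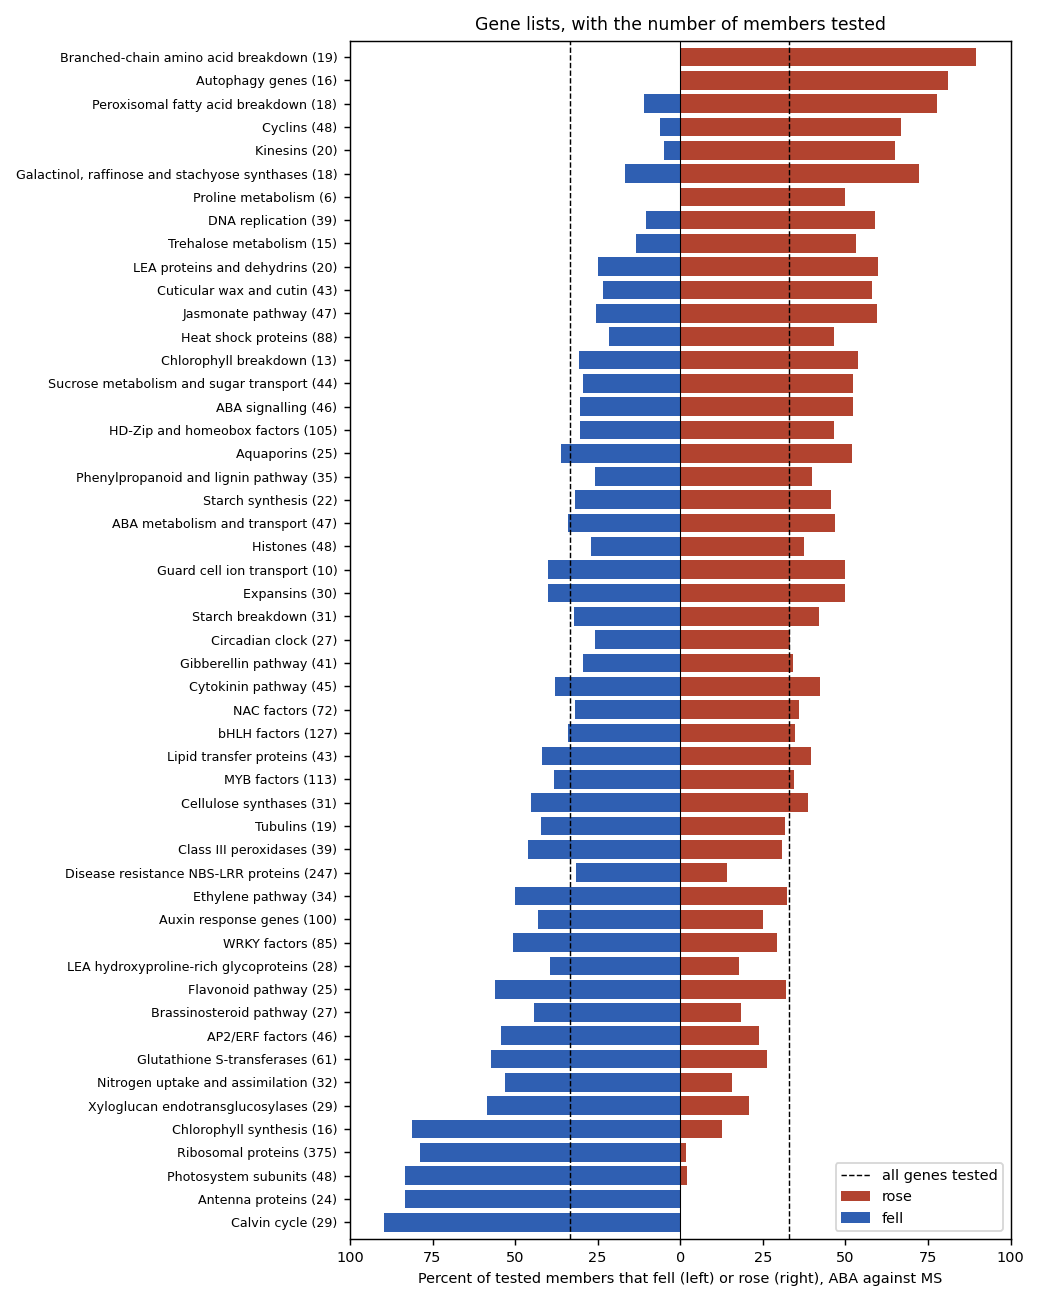
Percent of the tested members of each of 51 gene lists that rose (right, red) or fell (left, blue) under ABA against the MS control by edgeR's test at an adjusted p under 0.05, with the number of members tested in parentheses. Dashed lines mark the shares over all 23984 genes tested, 32.9% and 33.4%. Amino acid, fatty acid and autophagy genes stand at the top, and Calvin cycle, antenna, photosystem, ribosomal and chlorophyll synthesis genes at the bottom.

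The largest rises included the following genes. A cupin gene of the seed storage protein superfamily (Manes.13G137200, chromosome 13 from 26463008 to 26465452) had 0.547, 0.369 and 0.484 FPKM in the MS control and 77.6, 77.6 and 79.1 FPKM under ABA. The gene nearest to *EM6* of Arabidopsis, a small LEA protein of ripening seeds (Manes.09G106800, chromosome 9 from 22828571 to 22829650), had 4.4, 4.39 and 4.05 FPKM in the MS control and 218, 179.6 and 210.5 FPKM under ABA. Every ABA library lay far above every MS library for both genes, with log2 fold changes of 7.45 (SE 0.09, edgeR adjusted p = 1.1e-13) and 5.63 (SE 0.09, edgeR adjusted p = 6.06e-13). The other tested *EM6* match fell (-1.97), and so did 3 of the 4 tested seed markers, as given above. Of 4 tested copies with 1 nearest gene, for a protein of unknown function (DUF1442), 3 rose, by up to 5.57. Manes.02G201000 had 6.1, 5.62 and 5.35 FPKM in the MS control and 268, 256 and 252 FPKM under ABA, and Manes.S098500 had 1.55, 2.27 and 3.21 FPKM in the MS control and 103, 101 and 111 FPKM under ABA. The groups were widely separated in both, at 5.57 (SE 0.06, edgeR adjusted p = 4.79e-14) and 5.52 (SE 0.14, edgeR adjusted p = 2.12e-11), and the gap to PEG was wider still, at 9.57 and 9.68. *HSFA2*, a heat shock factor that turns on chaperone genes (Manes.16G100700), had 0.159, 0.346 and 0.0898 FPKM in the MS control and 26.0, 27.2 and 25.7 FPKM under ABA, a log2 fold change of 7.09 (SE 0.19, edgeR adjusted p = 3.28e-11) with no overlap between the groups.

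The largest falls included genes of several kinds. *PHI-1*-like Manes.18G065800 (chromosome 18 from 5667552 to 5668779), of a family named from phosphate-induced genes of tobacco cells, had 334, 329 and 332 FPKM in the MS control and 7.79, 8.46 and 8.47 FPKM under ABA. All ABA libraries were far below the MS libraries, at -5.27 (SE 0.49, edgeR adjusted p = 1.79e-06). A VQ motif gene (Manes.13G109800), of a family whose proteins bind WRKY factors, had 18.4, 17.8 and 20.8 FPKM in the MS control and 0.235, 0.518 and 0.467 FPKM under ABA, and the basic helix-loop-helix (bHLH) factor Manes.11G029700 had 24.7, 23.4 and 23.9 FPKM in the MS control and 0.653, 0.478 and 0.650 FPKM under ABA. Neither gene showed overlap between the groups, with -5.45 (SE 0.20, edgeR adjusted p = 5.21e-10) and -5.27 (SE 0.09, edgeR adjusted p = 1.86e-12). Others among the largest falls were a *SCL14* match, which in Arabidopsis acts in detoxification (Manes.02G131000, -4.89), homeobox gene *HB52* (Manes.03G105000, -5.05), a *CYP71B* cytochrome P450 (Manes.14G059600, -4.85), a transporter of the major facilitator superfamily (Manes.15G102900, -4.78) and the germin *GLP3* (Manes.11G020100, -4.63), all on the log2 scale. These 5 genes were also lower than in the PEG libraries, with log2 fold changes of -4.43, -4.14, -2.98, -5.19 and -4.36. *CP12-2* (Manes.05G003500), a small regulator of the Calvin cycle, is set apart, because its levels in the MS libraries were not alike: it had 694, 1.63 and 657 FPKM in the MS control and 0.996, 1.48 and 1.2 FPKM under ABA. MS replicate 2 stood with the ABA libraries, and the log2 fold change of -8.44 (SE 2.5, edgeR adjusted p = 0.0108) became -9.03 without it.

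The ABA signalling chain moved in opposite ways at its first and second steps. Of 12 receptor genes tested, 2 rose and 8 fell, with a median log2 fold change of -0.69. Of 14 clade A PP2C genes, 12 rose and 1 fell, 10 of them rising at least 2-fold, with a median of 2.32. Of 12 SnRK2 genes 4 rose and 5 fell, with a median of -0.04, and of 8 ABF/AREB and ABI genes 6 rose and 0 fell, with a median of 1.24. The medians against PEG were -0.69 for receptors, 4.59 for PP2Cs, 0.12 for kinases and 1.81 for ABF/AREB and ABI factors.

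**Figure D2:**
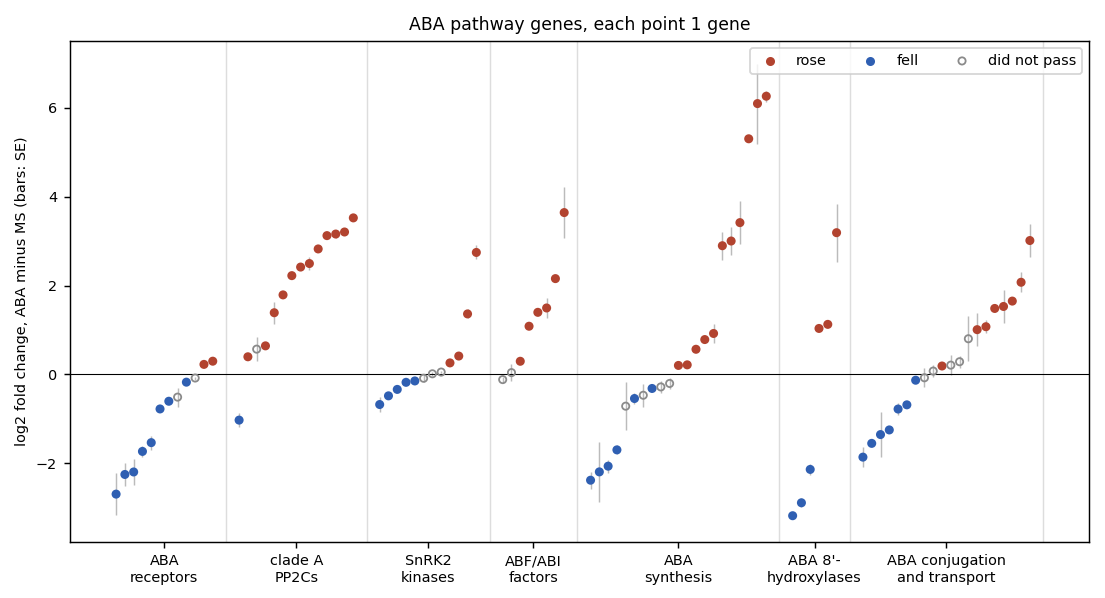
Log2 fold change of each tested gene of ABA signalling, synthesis, 8′-hydroxylation, conjugation and transport under ABA against the MS control, grouped by role and ordered by size, with bars for the SE from edgeR. Red points rose, blue points fell and open points did not pass an adjusted p of 0.05. PP2C points lie mostly above 0 (12 of 14 rose) and receptor points mostly below (8 of 12 fell), and the 6 hydroxylases split 3 and 3.

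The receptors that fell most belonged to the *PYL2*, *PYL4* and *PYL6* matches. The more abundant *PYL4* match (Manes.09G110800) had 14.3, 16.1 and 16.9 FPKM in the MS control and 3.62, 5.36 and 4.62 FPKM under ABA. The groups did not overlap and ABA was lower, at -1.73 (SE 0.13, edgeR adjusted p = 2.6e-07). Both *PYL2* matches (Manes.16G079500 and Manes.03G047500, -2.19 and -1.53), the other *PYL4* match (Manes.10G007900, -2.69) and the *PYL6* match (Manes.07G135200, -2.25) fell at least 2-fold as well. The receptors with the highest levels in these leaves changed little. *PYL9* match Manes.05G024300 had 111, 116 and 107 FPKM in the MS control and 127, 121 and 126 FPKM under ABA, with ABA higher and no overlap, a rise of 0.23 (SE 0.04, edgeR adjusted p = 0.000242). The other *PYL9* match (Manes.01G247300, -0.08, adjusted p = 0.0518 in edgeR) and the *PYR1* match (Manes.17G013400, -0.51, adjusted p = 0.0545 in edgeR) did not pass, although the first did without MS replicate 1 (-0.11) and the second without ABA replicate 1 (-0.77). Of 4 *PYL8* matches 3 fell and 1 rose, between -0.78 (Manes.S008400) and 0.30 (Manes.06G158100). All these values are log2 fold changes.

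Among PP2Cs, the matches of *HAI3*, *AHG1* and *AHG3* rose together. *HAI3* match Manes.02G128000 (chromosome 2 from 9341658 to 9343855) had 51.9, 56.0 and 51.8 FPKM in the MS control, 442, 451 and 439.8 FPKM under ABA and 5.86, 5.66 and 5.59 FPKM under PEG. The ABA libraries were the highest and the PEG libraries the lowest, with no overlap among the 3 groups, and the difference from MS was 3.12 (SE 0.04, edgeR adjusted p = 8.05e-14). *AHG3* match Manes.07G119400, of a phosphatase that acts strongly in seeds, reached the highest PP2C level, with 114, 113 and 102 FPKM in the MS control, 567, 554 and 564 FPKM under ABA and 48.5, 48.5 and 47.6 FPKM under PEG. Its groups had the same order without overlap, at 2.42 (SE 0.04, edgeR adjusted p = 1e-12). The other *HAI3* matches rose by 3.21 (Manes.01G168600), 2.82 (Manes.06G158800) and 1.39 (Manes.02G010500), the other *AHG3* match by 1.79 (Manes.10G026400) and the *AHG1* match by 3.16 (Manes.06G139900), on the log2 scale. The 7 *HAB1* matches were not uniform. Manes.16G109500 had 17.5, 14.8 and 16.5 FPKM in the MS control and 180.1, 180.4 and 177 FPKM under ABA, rising by 3.52 (SE 0.06, edgeR adjusted p = 1.94e-12) with no overlap, whereas Manes.16G082900 fell, at -1.03 (SE 0.17, edgeR adjusted p = 0.000181) at a low level and Manes.04G142100 did not pass, at 0.57 (SE 0.27, edgeR adjusted p = 0.0809). The others rose by 2.5 (Manes.03G036900), 2.22 (Manes.16G099200), 0.64 (Manes.03G050800) and 0.40 (Manes.11G023300).

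SnRK2 kinases, which carry the signal from the phosphatases to transcription factors and channels, changed less. The matches of *SNRK2.6*, the guard cell kinase also called OST1, went both ways. Manes.12G130600 had 7.43, 6.53 and 8.05 FPKM in the MS control and 18.2, 19.5 and 16.5 FPKM under ABA, higher under ABA without overlap, by 1.36 (SE 0.10, edgeR adjusted p = 2.65e-07). Manes.02G108000 rose by 2.75 (SE 0.16, edgeR adjusted p = 2.78e-08) from a low level, Manes.17G021500 and Manes.17G094700 by 0.41 and 0.26, while Manes.15G143700 and Manes.13G096300 fell, at -0.34 and -0.68. *SNRK2.3* match Manes.12G094000, the kinase gene with the highest MS level, had 84.5, 86.3 and 91.9 FPKM in the MS control and 78.1, 72.4 and 76.7 FPKM under ABA and fell slightly, at -0.15 (SE 0.04, edgeR adjusted p = 0.00619), and the other *SNRK2.3* match did not pass (Manes.13G128400, 0.05). Of the *SNRK2.4* matches Manes.10G123000 fell (-0.48) and Manes.07G019500 did not pass (0.01), nor did the *SNRK2.8* match (Manes.18G065200, -0.09).

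*ABF* transcription factors bind the ABA-responsive element of promoters. *ABF2* match Manes.05G174500 (chromosome 5 from 24103882 to 24109766) had 100, 95.4 and 92.1 FPKM in the MS control, 404, 409.9 and 413 FPKM under ABA and 84.9, 88.7 and 90.3 FPKM under PEG. ABA stood above both other groups, which were close to each other, and the difference from MS was 2.16 (SE 0.03, edgeR adjusted p = 8.22e-13). *ABF3* match Manes.10G080700 had 43.7, 43.7 and 45.8 FPKM in the MS control and 114, 111 and 112 FPKM under ABA and a second *ABF2* match (Manes.18G037900) had 60.8, 53.4 and 58.6 FPKM in the MS control and 113, 126 and 112 FPKM under ABA. Both were higher in every ABA library, at 1.40 (SE 0.03, edgeR adjusted p = 1.01e-11) and 1.08 (SE 0.07, edgeR adjusted p = 8.72e-08). The third *ABF2* match did not pass (Manes.04G058300, -0.12 (SE 0.07, edgeR adjusted p = 0.14)). *AREB3* match Manes.18G048100 rose by 0.30, and the *ABI5* matches, regulators of seed dormancy, rose from under 1 FPKM (Manes.09G056100, 1.5, and Manes.11G161300, 3.64). The match of *ABI3*, a seed regulator (Manes.13G043500), had 2.52, 2.04 and 2.02 FPKM in the MS control, 2.04, 2.72 and 1.68 FPKM under ABA and 0, 0 and 0.0299 FPKM under PEG. Its MS and ABA values overlapped and the log2 fold change was 0.04 (SE 0.20, edgeR adjusted p = 0.866), while all PEG libraries were far lower.

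Genes of ABA synthesis split by step. *NCED* enzymes cleave carotenoids to the ABA precursor and set the pace of synthesis under water stress. *NCED3* match Manes.15G102000 (chromosome 15 from 7576697 to 7578484) had 5.74, 6.28 and 5.67 FPKM in the MS control, 219, 221 and 228 FPKM under ABA and 5.02, 6.24 and 5.79 FPKM under PEG. *NCED3* match Manes.03G083500 (chromosome 3 from 13377142 to 13379442) had 2.34, 2.04 and 1.46 FPKM in the MS control, 139, 143 and 144 FPKM under ABA and 0.822, 1.12 and 1.07 FPKM under PEG. In both genes the ABA libraries stood far above the MS and PEG libraries, by 5.30 (SE 0.07, edgeR adjusted p = 2.6e-13) and 6.26 (SE 0.12, edgeR adjusted p = 3.07e-12) against MS and by 5.49 and 7.34 against PEG. The earlier step, zeaxanthin epoxidase, rose mildly in both *ABA1* matches (Manes.13G124100, 0.79, and Manes.10G150700, 0.57). Both *NCED6* matches rose from very low levels (Manes.15G050500, 6.1, and Manes.03G150400, 2.9), *NCED5* match Manes.15G122400 rose by 0.92, and *NCED5* match Manes.17G071200 did not pass (-0.28). *ABA4* match Manes.02G068600, of neoxanthin synthesis, had 212, 209.8 and 208 FPKM in the MS control and 237, 234 and 230.3 FPKM under ABA and rose by 0.22 (SE 0.04, edgeR adjusted p = 0.000576), and its level under PEG was lower than both, with a log2 fold change of 2.55 against PEG.

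The later steps of synthesis did not follow *NCED3*. Of 9 matches of *ABA2*, a short-chain dehydrogenase and so a name that may cover related enzymes, 5 fell and 2 rose. Manes.07G052100 had 11.4, 11.4 and 10.5 FPKM in the MS control and 3.72, 3.25 and 2.87 FPKM under ABA, lower under ABA without overlap, at -1.70 (SE 0.10, edgeR adjusted p = 3.63e-08). The others that fell were Manes.07G051200 (-2.38), Manes.07G051300 (-2.19), Manes.04G164700 (-2.06) and Manes.09G049900 (-0.54), and those that rose were Manes.06G055800 (3.42) and Manes.11G164900 (3.0), both under 3 FPKM in every group. Manes.08G030100 (-0.47) and Manes.09G050100 (-0.71) did not pass. *AAO3*, the aldehyde oxidase of the last step, fell slightly in Manes.04G051100 (-0.32) and did not pass in Manes.04G057100 (-0.20), and the match of its cofactor gene *ABA3* rose slightly (Manes.06G173000, 0.20).

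ABA 8′-hydroxylases of the CYP707A family begin the breakdown of ABA. *CYP707A1* match Manes.07G081100 (chromosome 7 from 18197498 to 18200195) had 119, 122 and 132 FPKM in the MS control, 12.5, 13.2 and 13.8 FPKM under ABA and 6.22, 5.94 and 5.0 FPKM under PEG. The MS libraries were about as far above ABA as a log2 fold change of -3.18 (SE 0.07, edgeR adjusted p = 9.85e-12) gives, and PEG was lowest, so that against PEG the same gene was higher under ABA, by 1.39. *CYP707A1* match Manes.10G067700 repeated this, with 22.6, 21.1 and 21.8 FPKM in the MS control, 2.77, 2.68 and 3.01 FPKM under ABA and 1.45, 2.00 and 1.46 FPKM under PEG and -2.89 (SE 0.10, edgeR adjusted p = 3.29e-10) against MS but 0.98 against PEG. *CYP707A4* match Manes.18G037400 fell too, at -2.14 (SE 0.12, edgeR adjusted p = 1.54e-08). *CYP707A2* match Manes.01G170900 had 19.0, 20.6 and 22.6 FPKM in the MS control and 41.7, 39.6 and 41.0 FPKM under ABA, and *CYP707A4* match Manes.07G077900 had 10.6, 10.3 and 10.2 FPKM in the MS control and 21.8, 22.2 and 21.0 FPKM under ABA. Both were higher in every ABA library, with 1.04 (SE 0.06, edgeR adjusted p = 2.18e-08) and 1.13 (SE 0.06, edgeR adjusted p = 7.04e-09). The low-level *CYP707A2* match Manes.02G130400 rose by 3.19. With PEG as the reference 5 of the 6 hydroxylases rose and 1 fell.

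Of 20 genes for ABA conjugation and transport 8 rose and 7 fell. *ABCG25*, an ABA exporter, showed the clearest rise of the group. Its match Manes.18G101300 had 31.0, 32.4 and 32.4 FPKM in the MS control, 93.5, 95.1 and 99.3 FPKM under ABA and 8.39, 7.95 and 8.04 FPKM under PEG, with all ABA libraries highest and PEG lowest, at 1.65 (SE 0.04, edgeR adjusted p = 1e-11) against MS. The other *ABCG25* match rose from a very low level (Manes.02G192400, 3.01). The 13 tested matches of the importer *ABCG40* belong to a large transporter family and went both ways. The most abundant in the MS control, Manes.11G063600 and Manes.04G105800, fell, at -0.68 (SE 0.03, edgeR adjusted p = 9.07e-10) and -1.25 (SE 0.03, edgeR adjusted p = 1.57e-11), while Manes.11G063500 rose by 1.49 (SE 0.09, edgeR adjusted p = 2.85e-08). Among the rest, Manes.04G106100 (0.19), Manes.11G050100 (1.07), Manes.04G106000 (1.53) and Manes.03G018600 (2.07) rose, Manes.04G101900 fell (-0.13) and Manes.11G063400 and Manes.11G049900 did not pass (-0.07 and 0.08). All 4 matches of the importer *NPF4.6* fell, the most abundant being Manes.05G096200 with 72.1, 72.6 and 71.5 FPKM in the MS control and 22.8, 23.8 and 24.1 FPKM under ABA, lower in each ABA library at -1.55 (SE 0.03, edgeR adjusted p = 7.96e-12). The others were Manes.01G191300 (-0.78), Manes.01G190800 (-1.86) and Manes.01G190700 (-1.35), and the last did not pass when any 1 of the 6 libraries was left out, at -1.47 to -1.27. *UGT71B6*, which conjugates ABA to glucose, did not pass (Manes.09G159600, 0.21 (SE 0.23, edgeR adjusted p = 0.444)).

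**Figure D3:**
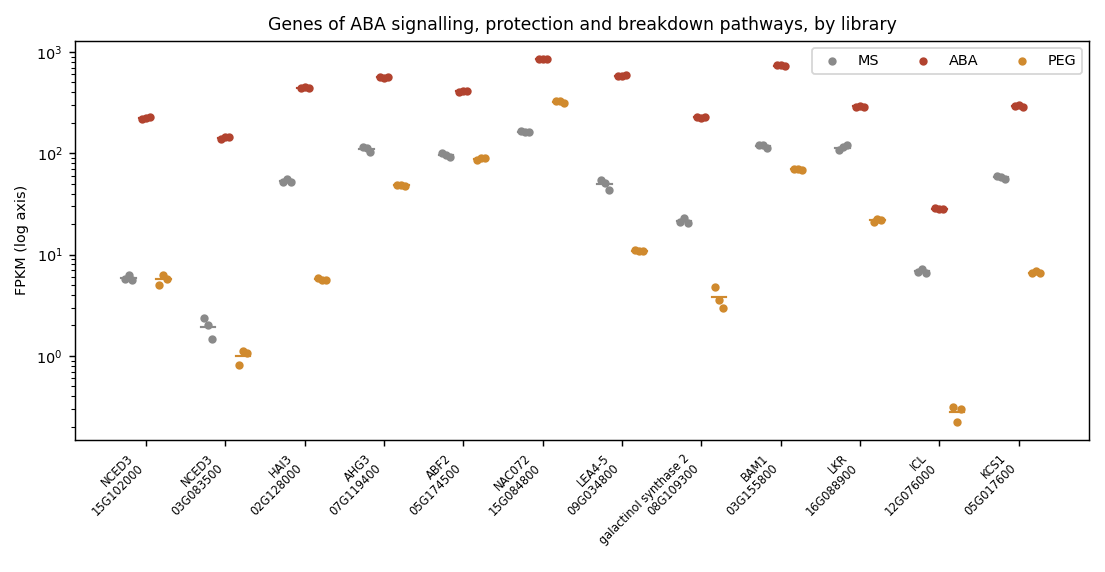
Expression (FPKM, log axis) of 12 genes in each library of the MS control (grey), ABA (red) and PEG (orange), with a bar at each group's mean, for matches of *NCED3*, *HAI3*, *AHG3*, *ABF2*, *NAC072*, *LEA4-5*, galactinol synthase 2, *BAM1*, *LKR*, *ICL* and *KCS1*. In all 12 genes the 3 ABA libraries lie above the 6 others. For 10 of them the PEG libraries lie below the MS libraries.

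Genes for protective proteins rose in part. Of 20 LEA and dehydrin genes 12 rose and 5 fell, with a median of 0.61, and against PEG 19 rose and 0 fell, with a median of 3.07. *LEA4-5* match Manes.09G034800 (chromosome 9 from 4864917 to 4865730) had 54.9, 51.1 and 43.8 FPKM in the MS control, 584, 574 and 594 FPKM under ABA and 11.1, 10.9 and 10.8 FPKM under PEG. Its ABA libraries were highest by far, at 3.61 (SE 0.07, edgeR adjusted p = 1.94e-12). A dehydrin of the *AT1G54410* type, Manes.09G138100, was the most abundant member, with 582, 542 and 544 FPKM in the MS control and 816, 774 and 818 FPKM under ABA, and rose less, by 0.59 (SE 0.03, edgeR adjusted p = 1.35e-08), as did its relative Manes.08G154500 by 1.60. An *AT2G23110*-type LEA gene went the other way: Manes.12G112300 had 66.2, 58.1 and 55.0 FPKM in the MS control and 10.8, 9.54 and 11 FPKM under ABA and 0 FPKM in all PEG libraries, a log2 fold change of -2.45 (SE 0.12, edgeR adjusted p = 8.52e-08) without overlap. LEA genes Manes.13G139000 and Manes.01G135700 rose by 1.32 and 3.63. A different family that shares the name, the LEA hydroxyproline-rich glycoproteins, had 5 of 28 members up and 11 down, for example Manes.07G113500, with 13.7, 12.7 and 13.9 FPKM in the MS control and 0.680, 0.429 and 0.452 FPKM under ABA and a log2 fold change of -4.60 (SE 0.20, edgeR adjusted p = 2.07e-09).

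Raffinose-family sugars accumulate in drying tissue, and galactinol synthase makes their precursor. Of 18 tested genes listed for these sugars 13 rose and 3 fell, with a median of 0.69 against MS and 1.72 against PEG. Not all of them are synthases by name: 4 are of the seed imbibition type, of which 3 rose and 1 fell. Galactinol synthase 2 match Manes.08G109300 had 21.0, 22.9 and 20.4 FPKM in the MS control and 229.8, 223 and 226 FPKM under ABA, and galactinol synthase 1 match Manes.15G003200 had 92.9, 91.1 and 91.2 FPKM in the MS control and 228, 229 and 231 FPKM under ABA. ABA was higher in both without overlap, by 3.46 (SE 0.10, edgeR adjusted p = 6.02e-11) and 1.38 (SE 0.03, edgeR adjusted p = 3.79e-12). The second galactinol synthase 2 match rose by 2.27 (Manes.09G179100), raffinose synthase match Manes.17G115500 by 1.73 and Manes.08G049600, of the seed imbibition type and the most abundant member under ABA, by 0.82. Galactinol synthase 4 match Manes.13G029000 had 206, 205 and 193 FPKM in the MS control and 85.4, 88.6 and 86.0 FPKM under ABA and fell, at -1.15 (SE 0.03, edgeR adjusted p = 1.57e-11), so copies of the same enzyme differed in direction, and the other raffinose synthase and 1 of the seed imbibition type fell too, at -2.31 and -2.47.

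In proline and trehalose metabolism rises were more frequent than falls. *P5CS2* makes the proline precursor, and its match Manes.10G024800 had 122, 118 and 124 FPKM in the MS control and 179, 185 and 179 FPKM under ABA, higher under ABA by 0.64 (SE 0.03, edgeR adjusted p = 2.06e-09), with the second match up by 0.29 (Manes.07G120700). *PRODH2*, which breaks proline down, rose as well (Manes.02G063900, 0.89 (SE 0.06, edgeR adjusted p = 6.28e-08)), and the other 3 proline genes tested did not pass. Of 15 trehalose genes 8 rose and 2 fell. Trehalase match Manes.02G005400, whose enzyme splits trehalose, had 33.6, 33.7 and 32.6 FPKM in the MS control and 9.33, 8.65 and 8.13 FPKM under ABA and fell, at -1.87 (SE 0.05, edgeR adjusted p = 6.62e-11), without overlap, while the other trehalase match did not pass (-0.05). The trehalose-phosphate synthase matches Manes.06G103000, Manes.05G087900 and Manes.16G042700 rose by 1.15, 0.57 and 0.53.

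Chaperone genes rose more often than they fell. Of 88 heat shock protein genes 41 rose and 19 fell, with a median of 0.24 and 23 rises of at least 2-fold. Small heat shock protein Manes.10G020100 had 106, 101 and 106 FPKM in the MS control and 585, 588 and 591 FPKM under ABA, above the MS control in every library by 2.56 (SE 0.03, edgeR adjusted p = 5.53e-14). The same class gave 3.56 (Manes.02G186800), 2.78 (Manes.04G113600) and 2.48 (Manes.10G020600), although of the 15 tested copies with the same nearest gene as Manes.10G020100 11 rose and 2 fell, from -1.02 to 3.56. The *HSP101* match Manes.06G085600 rose by 1.42. Among abundant chaperones, HSP90-type Manes.01G003800 (-0.17) and the chloroplast HSP70 match Manes.10G117300 (-0.45) fell.

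Transport genes of guard cells were at low levels in these whole leaves. Of 10 tested, 5 rose and 4 fell. *ALMT12* encodes an anion channel of stomatal closure. Its match Manes.01G208500 had 0.158, 0.0984 and 0.0447 FPKM in the MS control and 0.739, 0.793 and 1.28 FPKM under ABA and rose by 3.25 (SE 0.58, edgeR adjusted p = 0.0004), without overlap but from 6 reads in the 3 MS libraries. The more abundant match Manes.17G013900 had 2.57, 2.86 and 2.19 FPKM in the MS control and 1.72, 1.88 and 2.21 FPKM under ABA, with overlap between the groups, and did not pass (-0.32 (SE 0.16, edgeR adjusted p = 0.091)). The *KAT1* matches, potassium channels of stomatal opening, went both ways, with Manes.15G120900 at -0.71 (SE 0.09, edgeR adjusted p = 1.8e-05) and Manes.17G069300 at 0.60 (SE 0.10, edgeR adjusted p = 0.000249). *RBOHF* match Manes.S089900, an NADPH oxidase, fell, at -0.93 (SE 0.08, edgeR adjusted p = 1.42e-06), and the other tested *RBOHF* match rose (0.48). Guard cell markers fell in sum, as given above, and their part in these values was not tested.

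Most photosynthesis genes fell. Of 24 antenna genes 0 rose and 20 fell, of 48 photosystem subunit genes 1 rose and 40 fell, and of 29 Calvin cycle genes 0 rose and 26 fell. The medians were -0.66, -0.91 and -1.23 against MS, and -2.1, -1.60 and -1.86 against PEG. Summed over the Calvin cycle list, the level was 6656 to 7620.1 FPKM in the MS control, 2112 to 2209 FPKM under ABA and 12989 to 14339 FPKM under PEG. The ABA libraries thus had the lowest level of the 3 groups, whichever group is taken as the control.

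Rubisco fixes carbon dioxide, and *RBCS* encodes its small subunit. The most abundant copy (Manes.01G011500, chromosome 1 from 2015240 to 2017292) had 2574, 2372 and 2209 FPKM in the MS control, 261, 384 and 429 FPKM under ABA and 5659, 5648 and 5558 FPKM under PEG. ABA was lowest and PEG highest without overlap, and the log2 fold change against MS was -2.67 (SE 0.14, edgeR adjusted p = 1.22e-08). A second copy (Manes.05G137400) had 1624, 1563 and 1451 FPKM in the MS control and 618, 601 and 534 FPKM under ABA and fell, at -1.34 (SE 0.07, edgeR adjusted p = 1.74e-08). Rubisco activase match Manes.10G027600 had 265, 276 and 277 FPKM in the MS control and 112, 109 and 107 FPKM under ABA, and fructose-bisphosphatase *CFBP1* match Manes.08G083500 had 132, 134 and 139.8 FPKM in the MS control and 41.5, 41.8 and 40.0 FPKM under ABA. Both were lower in every ABA library, at -1.26 (SE 0.03, edgeR adjusted p = 4.81e-12) and -1.66 (SE 0.03, edgeR adjusted p = 2.79e-12). Sedoheptulose-bisphosphatase (Manes.07G124800, -1.35), phosphoribulokinase (Manes.15G185100, -1.5), a phosphoglycerate kinase (Manes.14G009000, -1.25) and both glyceraldehyde-phosphate dehydrogenase matches *GAPA2* (Manes.04G096300, -1.52) and *GAPB* (Manes.18G003300, -1.43) fell to like extents. Of the other phosphoglycerate kinase copies of this name 1 fell less and 1 did not pass (-0.02).

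**Figure D4:**
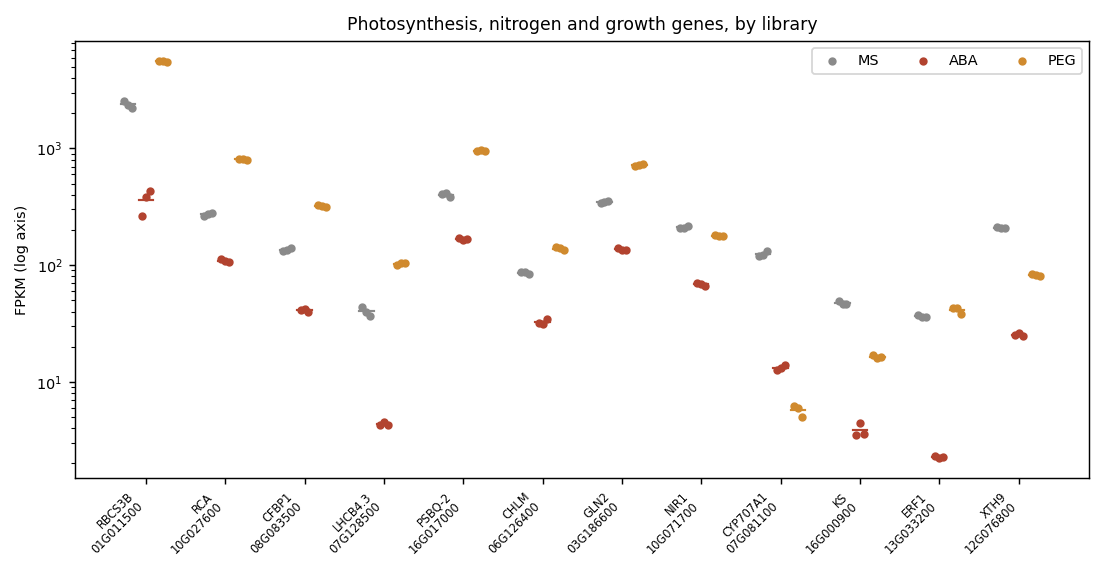
Expression (FPKM, log axis) of 12 genes in each library of the MS control (grey), ABA (red) and PEG (orange), with a bar at each group's mean, for matches of *RBCS3B*, *RCA*, *CFBP1*, *LHCB4.3*, *PSBQ-2*, *CHLM*, *GLN2*, *NIR1*, *CYP707A1*, *KS*, *ERF1* and *XTH9*. ABA lies below MS in all 12. For 11 genes ABA also lies below PEG, the exception being *CYP707A1*, for which PEG lies below ABA.

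Of the antenna genes 5 and of the photosystem subunit genes 19 fell at least 2-fold, beside 16 of the Calvin cycle genes, and the lowest values were -3.13 and -2.30 in the antenna and photosystem lists. *LHCB4.3* match Manes.07G128500 had 43.7, 39.8 and 36.7 FPKM in the MS control and 4.27, 4.53 and 4.26 FPKM under ABA, a gap of -3.13 (SE 0.07, edgeR adjusted p = 1.07e-11). The other LHCB4-type gene (Manes.08G091700, -1.29) and the photosystem I antenna genes Manes.03G042300 (-1.12), Manes.07G104600 (-1.03) and Manes.14G079800 (-1.05) fell about 2-fold, and Manes.13G058600, a photosystem I antenna gene, fell less, at -0.28 (SE 0.04, edgeR adjusted p = 0.00018). Of the oxygen-evolving proteins, PSBQ match Manes.16G017000 had 408, 415 and 385 FPKM in the MS control and 171, 163 and 169 FPKM under ABA, lower under ABA without overlap at -1.2 (SE 0.03, edgeR adjusted p = 3.1e-11), and PSBO match Manes.13G132700 fell, at -1.30. PSBR match Manes.15G102500, the most abundant photosystem gene named here, had 735, 718 and 695 FPKM in the MS control and 287, 281 and 298 FPKM under ABA and fell, at -1.25 (SE 0.06, edgeR adjusted p = 1.01e-08). Photosystem I genes ranged from -1.63 (Manes.12G040000, subunit E) to -0.68 (Manes.12G055600, subunit L) among those named.

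Most chlorophyll synthesis genes fell, while breakdown genes went both ways. Of 16 synthesis genes 2 rose and 13 fell, with a median of -0.58, and of 13 breakdown genes 7 rose and 4 fell, with a median of 0.21. The share of breakdown genes that fell, 30.8%, was near the 33.4% of all genes. *CHLM*, a methyltransferase of magnesium-porphyrin synthesis, had 87.3, 86.5 and 83.1 FPKM in the MS control and 31.7, 31.2 and 34.4 FPKM under ABA (Manes.06G126400), lower under ABA at -1.34 (SE 0.04, edgeR adjusted p = 1.64e-10). *GUN4*, which binds porphyrins and aids magnesium insertion (Manes.03G108000, -1.73), and the magnesium chelatase subunit *CHLI1* (Manes.17G053100, -0.64) fell as well. The exception was *CAO*, which converts chlorophyll *a* to chlorophyll *b*, with 28.9, 24.0 and 30 FPKM in the MS control and 98.2, 83.4 and 90.1 FPKM under ABA (Manes.18G077600) and a rise of 1.78 (SE 0.08, edgeR adjusted p = 3.96e-09).

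On the breakdown side, *NYE1* removes the magnesium of chlorophyll and *NYC1* reduces chlorophyll *b*. *NYE1* match Manes.01G069700 had 136, 127 and 136 FPKM in the MS control and 269, 274 and 273 FPKM under ABA, and *NYC1* match Manes.03G021500 had 104, 104 and 98.3 FPKM in the MS control and 230.4, 240.2 and 229 FPKM under ABA. The ABA libraries were the higher in both without overlap, by 1.10 (SE 0.03, edgeR adjusted p = 6.21e-11) and 1.25 (SE 0.05, edgeR adjusted p = 4.44e-10). The second *NYE1* match (Manes.02G030000, 0.63), the second *NYC1* match (Manes.16G115400, 0.74) and *PAO*, which opens the porphyrin ring (Manes.04G012500, 0.79), rose less. *CLH2*, a chlorophyllase, fell (Manes.03G173700, -1.28 (SE 0.05, edgeR adjusted p = 1.6e-09)), as did the single matches of *NOL* (-0.90), which acts with *NYC1*, of *HCAR* (-0.39), the next enzyme on chlorophyll *b*, and of *RCCR* (-0.31), which acts after *PAO*. Of 3 tested matches of the other chlorophyllase name, *CLH1*, 1 rose at least 2-fold and 0 fell, with values from -0.26 to 1.77. Against PEG the medians were -1.27 for synthesis and 1.22 for breakdown.

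Pathways that recover energy from amino acids and lipids rose with small changes in most members. Of 19 genes for breakdown of lysine and branched-chain amino acids 17 rose and 0 fell, with a median of 0.53, of 18 for peroxisomal fatty acid breakdown 14 rose and 2 fell (0.48), and of 16 autophagy genes 13 rose and 0 fell (0.40). Falls made up 0%, 11.1% and 0% of these lists beside 33.4% over all genes. Against PEG the 3 medians were 1.31, 1.25 and 0.36. *LKR*, the first enzyme of lysine breakdown (Manes.16G088900, chromosome 16 from 24573842 to 24588333), had 107, 115 and 119.5 FPKM in the MS control and 288, 293 and 287 FPKM under ABA, higher in every ABA library by 1.41 (SE 0.04, edgeR adjusted p = 5.4e-11). *ETFQO*, which passes electrons from these pathways to the respiratory chain (Manes.11G123500), had 42.6, 42.0 and 43.3 FPKM in the MS control and 85.0, 88.5 and 82.1 FPKM under ABA, and the dehydrogenase subunit *BCKDHA1* (Manes.02G172400) had 73.2, 72.7 and 72.8 FPKM in the MS control and 130.2, 136 and 134 FPKM under ABA. Neither gene's groups overlapped, with 1.06 (SE 0.05, edgeR adjusted p = 2.56e-09) and 0.94 (SE 0.03, edgeR adjusted p = 1.24e-10). *BCAT2* (Manes.18G051400, 0.70), *D2HGDH* (Manes.01G140700, 0.68) and *IVD* (Manes.11G142200, 0.53) rose less.

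In fat breakdown, *SDP1* is the lipase that releases fatty acids, *LACS7* activates them in the peroxisome, and *ICL* belongs to the glyoxylate cycle that turns their carbon into sugar precursors. *ICL* match Manes.12G076000 had 6.74, 7.12 and 6.64 FPKM in the MS control, 28.6, 28.3 and 28.3 FPKM under ABA and 0.311, 0.224 and 0.302 FPKM under PEG. The 3 groups were fully separated, with ABA highest, at 2.12 (SE 0.06, edgeR adjusted p = 4.14e-11) against MS, whereas the other tested *ICL* match fell by more than this one rose, at -4.09. *LACS7* match Manes.09G167400 had 73.5, 68.1 and 72.1 FPKM in the MS control and 139, 139 and 137 FPKM under ABA and *SDP1* match Manes.09G009300 had 33.7, 31.6 and 34.7 FPKM in the MS control and 61.0, 63.0 and 61.6 FPKM under ABA. ABA was higher in both, by 1.02 (SE 0.04, edgeR adjusted p = 2.31e-09) and 0.96 (SE 0.05, edgeR adjusted p = 1.7e-08), and *AIM1* (Manes.03G022900, 1.12), *ACX2* (Manes.12G137000, 0.74), *MFP2* (Manes.03G197400, 0.49) and *ACX4* (Manes.08G093200, 0.47) rose with them. A thiolase, Manes.03G150200, was the most abundant member in the MS control and did not pass (-0.05 (SE 0.03, edgeR adjusted p = 0.151)). The autophagy genes named rose by less than 2-fold, from 0.44 for *ATG18F* match Manes.15G076800 to 0.62 for *ATG18F* match Manes.03G122700 among those named, with *ATG6* match Manes.01G246700 at 0.50 and *ATG3* match Manes.06G132800 at 0.54.

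Starch and sugar genes had both directions within each list. Of 31 starch breakdown genes 13 rose and 10 fell, and of 22 synthesis genes 10 rose and 7 fell, with medians of 0.05 and 0.02. β-amylases release maltose from starch. *BAM1*, the form known to act in stressed leaves and guard cells (Manes.03G155800, chromosome 3 from 25139524 to 25142085), had 119.5, 120.0 and 112 FPKM in the MS control and 734, 738 and 725 FPKM under ABA. Every ABA library stood far above the MS libraries, by 2.71 (SE 0.03, edgeR adjusted p = 5.53e-14), and the second *BAM1* match rose by 2.18 (Manes.15G047700). *BAM3*, the form known for night-time breakdown in leaves (Manes.15G171200), had 18.1, 15.6 and 16.7 FPKM in the MS control and 2.99, 2.98 and 3.17 FPKM under ABA, lower under ABA at -2.4 (SE 0.07, edgeR adjusted p = 4.62e-11), while the other *BAM3* match rose (0.27). Of both *SEX4* matches, of a phosphatase that acts on starch, 1 fell (Manes.10G053500, -0.66) and 1 did not pass (-0.32). The phosphorylase *PHS1* had 8 tested matches, of which 7 rose, by up to 1.09, and 1 fell (Manes.05G108500, -1.39). Among synthesis genes, subunits of the first enzyme split, with *APL3* up (Manes.11G085500, 0.72) and *APL1* and *ADG1* down (Manes.03G182100, -1.5, and Manes.12G067900, -0.61). All 3 matches of *APL2*, another subunit, rose, by 1.75 to 3.01. The other matches of *APL1* and *ADG1* fell, at -0.45 and -2.51.

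Of 44 sucrose and sugar transport genes 23 rose and 13 fell, with a median of 0.28. *SWEET* proteins let sugars out of cells. *SWEET1* match Manes.18G086400 had 1.80, 1.74 and 2.47 FPKM in the MS control and 41.3, 45.6 and 44.3 FPKM under ABA, with no overlap and a rise of 4.50 (SE 0.12, edgeR adjusted p = 2.54e-11), whereas its relatives Manes.02G174100 and Manes.14G047700 rose by 1.15 and 1.40, and another copy with the nearest gene of Manes.14G047700 fell (-5.96). Sucrose synthase genes differed, with Manes.02G081500 (1.01) and Manes.01G221900 (0.76) higher and Manes.16G090600 lower (-1.01).

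Nitrogen uptake and assimilation genes fell more often than they rose. Of 32 genes 5 rose and 17 fell and 10 did not pass, with a median of -0.42 against MS and 0.04 against PEG. Nitrite reductase *NIR1* (Manes.10G071700) had 209.7, 208 and 218 FPKM in the MS control and 69.9, 69.2 and 66.0 FPKM under ABA, and chloroplast glutamine synthetase *GLN2* (Manes.03G186600) had 344, 349.8 and 353 FPKM in the MS control and 141, 135 and 134 FPKM under ABA. Both were lower in all ABA libraries, at -1.57 (SE 0.03, edgeR adjusted p = 2.78e-12) and -1.29 (SE 0.03, edgeR adjusted p = 3.51e-12), as were the glutamate synthase *GLU1* (Manes.09G005600, -1.02) and the ammonium transporter match *AMT2* (Manes.08G095000, -1.98). Of 3 tested *AMT2* matches 2 fell and 1 rose (0.48). *ASN1*, the asparagine synthetase that stores nitrogen for transport when carbon is short (Manes.02G212800), had 493, 464 and 460.3 FPKM in the MS control and 1192, 1105 and 1215 FPKM under ABA. ABA was higher without overlap, by 1.37 (SE 0.03, edgeR adjusted p = 2.2e-11), and *GDH1*, a glutamate dehydrogenase, rose by 1.0 (SE 0.05, edgeR adjusted p = 1.14e-08) in Manes.08G144100 and fell slightly in its other match (-0.19).

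Surface lipid genes rose more often than they fell. Of 43 cuticular wax and cutin genes 25 rose and 10 fell, with a median of 0.32 against MS and 0.69 against PEG. *KCS1* and *CER6* lengthen fatty acids, *CER1* and *CER3* turn them into the alkanes of wax, and *MYB96* switches wax genes on under drought. *KCS1* match Manes.05G017600 (chromosome 5 from 1283319 to 1285164) had 59.9, 58.3 and 55.5 FPKM in the MS control and 291, 298 and 287 FPKM under ABA, and *CER1* match Manes.01G274900 had 9.93, 8.63 and 9.27 FPKM in the MS control and 45.3, 42.0 and 43.3 FPKM under ABA. No MS library reached the level of an ABA library in either, with rises of 2.4 (SE 0.03, edgeR adjusted p = 3.97e-13) and 2.29 (SE 0.07, edgeR adjusted p = 1.25e-10). *CER6* (Manes.14G102100, 1.11), *CER3* (Manes.14G159000, 1.31), *CER1* match Manes.05G059800 (4.15) and *MYB96* match Manes.06G092600 (1.39) rose as well. Of the 5 tested *CER1* matches 4 rose and 1 fell (-2.1), the other *MYB96* match fell (-0.80) and the other *KCS1* match did not pass (0.00). *KCS10* match Manes.16G087600 had 179.6, 183 and 177 FPKM in the MS control and 73.6, 70.9 and 72.0 FPKM under ABA and fell, at -1.25 (SE 0.03, edgeR adjusted p = 1.2e-11), its other tested match rose (0.32), and *CER2* match Manes.02G144500 fell, at -1.15. Lipid transfer proteins went both ways, 17 up and 18 down of 43. *LTP3* match Manes.08G171800 had 1509, 1463 and 1495 FPKM in the MS control and 2678, 2648 and 2713 FPKM under ABA and rose by 0.91 (SE 0.03, edgeR adjusted p = 1.07e-10) (of 5 *LTP3* matches 3 rose and 1 fell), while Manes.01G112700 fell, at -0.61.

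Genes that loosen the cell wall were not uniform. Xyloglucan endotransglucosylases (XTHs) cut and rejoin wall polymers, and of 29 tested 6 rose and 17 fell, 14 of them at least 2-fold, with a median of -0.94. *XTH9* match Manes.12G076800 had 211, 209 and 206 FPKM in the MS control and 25, 26.0 and 24.9 FPKM under ABA, and *XTH22* match Manes.14G146100, a touch-induced gene in Arabidopsis, had 41.4, 42.7 and 44.2 FPKM in the MS control and 1.16, 1.71 and 1.35 FPKM under ABA. Every ABA library was lower, at -2.98 (SE 0.03, edgeR adjusted p = 6.95e-14) and -4.85 (SE 0.14, edgeR adjusted p = 5.05e-11). Expansins, which loosen walls without cutting, had 15 of 30 up and 12 down. Expansin A1 match Manes.06G091300 had 31.0, 33.9 and 33.6 FPKM in the MS control and 154, 155 and 151 FPKM under ABA and rose by 2.29 (SE 0.05, edgeR adjusted p = 6.79e-12), with no overlap, but of the 4 tested matches of this name 2 rose and 2 fell. Expansins Manes.18G010200 (3.93), Manes.08G172000 (2.65) and Manes.02G044700 (2.12) also rose. Expansin-like A1 match Manes.04G068200 had 174, 174 and 185 FPKM in the MS control and 51.8, 50.1 and 51.3 FPKM under ABA and fell, at -1.74 (SE 0.04, edgeR adjusted p = 7.3e-12). Of 31 cellulose synthase genes 12 rose and 14 fell, 4 and 1 of them at least 2-fold, between -1.26 and 2.83. The abundant members Manes.10G142600 (-0.84) and Manes.12G146600 (-0.71) fell.

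Water channels and peroxidases held genes of both directions. Of 25 aquaporins 13 rose and 9 fell. Plasma membrane aquaporin Manes.09G068800 had 34.1, 30.8 and 30.1 FPKM in the MS control and 230.3, 222 and 219 FPKM under ABA, a rise of 2.89 (SE 0.06, edgeR adjusted p = 3.59e-12) without overlap, while Manes.11G096600 fell, at -1.57 (SE 0.04, edgeR adjusted p = 1.79e-11). The tonoplast aquaporins also split, with Manes.09G062300 at 0.73 and Manes.08G012800 at -1.13. Of 39 class III peroxidases 12 rose and 18 fell. Peroxidase Manes.15G104300 had 253, 255 and 248 FPKM in the MS control and 75.6, 80.3 and 77.4 FPKM under ABA and fell, at -1.63 (SE 0.04, edgeR adjusted p = 8.25e-12), and Manes.07G138600 rose by 2.52 (SE 0.06, edgeR adjusted p = 1.2e-11). In the flavonoid pathway 8 of 25 rose and 14 fell. Chalcone synthase is its first enzyme, and of 5 tested matches 3 rose and 2 fell, from -1.97 to 3.32. Match Manes.11G075100 had 46.1, 50.7 and 45.8 FPKM in the MS control and 10.9, 11.7 and 12.1 FPKM under ABA. The groups did not overlap, and the log2 fold change was -1.97 (SE 0.06, edgeR adjusted p = 9.56e-11). Against PEG the same gene was higher, by 0.62, and the list median was 0.33 where it was -0.66 against MS.

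Detoxifying glutathione S-transferases fell more often than they rose, 35 against 16 of 61, with a median of -0.31. The most abundant, GSTF9 match Manes.02G089200, had 1105, 1079 and 1141 FPKM in the MS control and 529, 526 and 517 FPKM under ABA and fell, at -1.02 (SE 0.03, edgeR adjusted p = 2.88e-11), without overlap. Tau-class genes Manes.12G039900 (-2.83), Manes.10G113400 (-2.87) and Manes.10G113500 (-2.34) fell further, while other tau-class copies with the same nearest genes rose, by up to 2.78 and 2.13. Of the 4 GSTF9 matches 2 rose and 2 fell. Against PEG the list median was 0.22, so the direction of the list depended on the reference. Among 247 disease resistance genes of the NBS-LRR class 35 rose, 78 fell and 134 did not pass, so fewer passed than the 66.3% of all genes.

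Jasmonate genes mostly rose. Of 47 tested 28 rose and 12 fell, with a median of 0.76 against MS and 0.33 against PEG. *LOX2* and *AOS* act early in jasmonate synthesis, and JAZ proteins repress its response. *JAZ3* match Manes.15G133000 had 50.3, 48.1 and 49.1 FPKM in the MS control and 130.4, 133 and 131 FPKM under ABA, and *LOX2* match Manes.07G002500 had 6.29, 6.07 and 6.62 FPKM in the MS control and 30.1, 30.2 and 30 FPKM under ABA. Both were higher in all ABA libraries, by 1.48 (SE 0.03, edgeR adjusted p = 4.68e-12) and 2.31 (SE 0.06, edgeR adjusted p = 2.07e-11). Of the 4 tested *JAZ3* matches 2 rose and 1 fell, and of the 5 *LOX2* matches 4 rose and 1 fell. *JAZ2* (Manes.03G042500, 1.89), *JAZ1* (Manes.16G093500, 0.76) and an *AOS* match (Manes.15G146200, 2.1, 1 of 2 that rose among 4) rose, and *JAR1*, which makes the active jasmonate conjugate, fell (Manes.01G248400, -1.06 (SE 0.06, edgeR adjusted p = 1.87e-08)).

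Ethylene and auxin genes fell more often than they rose, 17 against 11 of 34 and 43 against 25 of 100. *ERF1*, a factor downstream of ethylene (Manes.13G033200), had 37.0, 36.2 and 35.6 FPKM in the MS control and 2.33, 2.2 and 2.26 FPKM under ABA, a log2 fold change of -3.93 (SE 0.07, edgeR adjusted p = 2.1e-12) with wide separation, and of 6 tested *ERF1* matches 5 fell and 1 rose (0.57). Of the matches of the receptors *ETR1* and *ETR2*, Manes.10G045000 (-0.84) and Manes.03G167400 (-0.94) fell, the other *ETR1* match did not pass (-0.22) and the other *ETR2* match rose (0.26). Of 3 *EBF1* matches, of a protein that removes EIN3, 2 fell (Manes.14G133100, -1.04, and Manes.06G057800, -0.73) and 1 rose (0.22), and *EIN3*, the most abundant member, did not pass (Manes.04G052000, -0.02 (SE 0.02, edgeR adjusted p = 0.265)). *ACO4*, of ethylene synthesis, rose in 2 of 3 matches, among them Manes.12G069300 (0.90), and fell in Manes.13G065800 (-0.45). Among auxin repressors of the AUX/IAA family, *IAA14* match Manes.15G036200 had 80.3, 78.5 and 75.9 FPKM in the MS control and 32.3, 32.9 and 35.0 FPKM under ABA and fell, at -1.16 (SE 0.04, edgeR adjusted p = 2.3e-10), as did *IAA3* match Manes.09G152700 (-1.22) and *IAA16* match Manes.08G135000 (-1.29). Other matches of *IAA14* and *IAA16* rose, by up to 0.64 and 1.18. *GH3.6* match Manes.15G080300, whose enzyme ties auxin to amino acids, had 10.1, 9.46 and 8.96 FPKM in the MS control and 37.1, 37.9 and 38.6 FPKM under ABA and rose by 2.06 (SE 0.05, edgeR adjusted p = 2.08e-11).

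Gibberellin genes went both ways, about as often as all genes did. Over the 41 genes of the pathway 14 rose and 12 fell, 10 and 8 of them at least 2-fold. These shares of 34.1% and 29.3% were near the 32.9% and 33.4% of all genes tested. *KS* makes the hydrocarbon precursor (Manes.16G000900) and had 49.6, 46.8 and 46.7 FPKM in the MS control and 3.50, 4.45 and 3.56 FPKM under ABA. *GA20OX1*, a late enzyme of synthesis, had 190.5, 190.3 and 184 FPKM in the MS control and 51.8, 51.5 and 49.1 FPKM under ABA in its abundant copy (Manes.06G141200) and 18.4, 17.3 and 16 FPKM in the MS control and 0.480, 0.720 and 0.837 FPKM under ABA in another (Manes.14G031200). All 3 genes were lower in each ABA library, at -3.57 (SE 0.08, edgeR adjusted p = 7.43e-12), -1.83 (SE 0.04, edgeR adjusted p = 2.83e-12) and -4.59 (SE 0.12, edgeR adjusted p = 2.77e-11). Against PEG the abundant *GA20OX1* copy differed by 0.06, so its fall depended on the reference. Of 6 tested *KS* matches 3 fell and 1 rose. Both tested matches of *CPS*, another synthesis gene, fell at least 2-fold, at -2.40 and -2.02. Some other synthesis genes rose at least 2-fold in 1 of their matches, namely *GA3OX1* (3.47), *GA20OX2* (2.16) and *KAO2* (2.08). A match of the receptor *GID1B* rose (Manes.01G212300, 1.60 (SE 0.03, edgeR adjusted p = 5.1e-12)), and the other did not pass (-0.06). Brassinosteroid genes fell in 12 cases and rose in 5 of 27. Those that fell included a match of the factor *BZR1* (Manes.13G136500, -0.94, of 3 with 1 up and 1 down), the receptor *BRI1* (Manes.13G086700, -0.64) and *CYP90D1* of synthesis (Manes.11G027200, -1.28). Cytokinin genes were balanced, 19 up and 17 down of 45, with a match of the receptor *AHK3* higher (Manes.13G010500, 0.76 (SE 0.04, edgeR adjusted p = 1.59e-08)) and the other not passing (-0.08).

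Transcription factor families held genes of both directions. NAC factors had 26 of 72 up and 23 down. These shares of 36.1% and 31.9% were near the 32.9% and 33.4% of all genes tested. The matches of *NAC072* (also called RD26), an ABA-responsive activator, were among the most abundant. Manes.03G114200 had 211, 203 and 205 FPKM in the MS control and 914, 905 and 924 FPKM under ABA, and Manes.15G084800 had 167, 160.2 and 161 FPKM in the MS control and 853, 849 and 841 FPKM under ABA. ABA was higher by 2.21 (SE 0.02, edgeR adjusted p = 4.79e-14) and 2.45 (SE 0.03, edgeR adjusted p = 4.79e-14), with no overlap, and an *ATAF1* match rose by 0.98 (Manes.02G166000), while the other fell slightly (-0.14). Of 105 HD-Zip and homeobox genes 49 rose and 32 fell. *HB7*, induced by ABA in Arabidopsis, had 453, 449.8 and 466 FPKM in the MS control and 1107, 1110.4 and 1101 FPKM under ABA (Manes.05G018700) and rose by 1.34 (SE 0.03, edgeR adjusted p = 1.11e-11). *HB21* match Manes.13G136800 had 46.8, 42.9 and 42.4 FPKM in the MS control and 222, 219 and 229 FPKM under ABA and rose by 2.41 (SE 0.04, edgeR adjusted p = 2.24e-12), while *HB16* match Manes.12G129800 fell, at -1.22.

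Log2 fold changes ran from -2.57 to 3.77 in MYB, from -2.46 to 5.66 in WRKY and from -4.85 to 3.20 in AP2/ERF factors. Of 113 MYB factors 39 rose and 43 fell, which is 34.5% and 38.1% beside 32.9% and 33.4% of all genes. *MYB102* match Manes.17G033800 had 31.4, 34.6 and 33.1 FPKM in the MS control and 195, 194 and 199 FPKM under ABA, and it and *MYB102* match Manes.16G019700 rose, with 2.63 (SE 0.05, edgeR adjusted p = 1.94e-12) and 3.42 (SE 0.07, edgeR adjusted p = 3.59e-12), among 6 tested matches of which 5 rose and 0 fell. *MYB73* match Manes.05G177900 had 119.7, 122 and 110.1 FPKM in the MS control and 20, 18 and 18.6 FPKM under ABA and fell, at -2.57 (SE 0.05, edgeR adjusted p = 4.72e-12). No group overlapped the other in these 3 genes. Of 85 WRKY factors 25 rose and 43 fell. Of 3 tested *WRKY28* matches 1 did not pass (-0.19) and 2 rose, Manes.15G118300 with 5.01, 4.09 and 4.01 FPKM in the MS control and 40.3, 39.2 and 38.8 FPKM under ABA and 3.24 (SE 0.09, edgeR adjusted p = 5.54e-11), and Manes.17G066200 by 2.62. *WRKY33*, a defence regulator, fell in its 3 named matches, at -1.70 (Manes.02G189600), -1.24 (Manes.09G112700) and -0.42 (Manes.18G098700), all negative log2 values. Of 46 AP2/ERF factors 11 rose and 25 fell, with *RAP2.3* match Manes.03G199300 up by 2.36 (SE 0.09, edgeR adjusted p = 7.31e-10), its other match down at -1.07, and Manes.12G031700, an *ERF1* match, down, at -3.72 (SE 0.20, edgeR adjusted p = 1.74e-08). Among bHLH factors 44 rose and 43 fell of 127, which is 34.6% and 33.9%, near the shares over all genes. Manes.14G046300 was lower at -3.0 (SE 0.09, edgeR adjusted p = 1.23e-10) and Manes.09G177600 higher by 1.03 (SE 0.07, edgeR adjusted p = 1.14e-07). Of 27 clock genes 9 rose and 7 fell, none at least 2-fold, from -0.96 for *LNK2* to 0.80 for a match of *LHY*, a morning factor whose other match fell (-0.84).

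Cell division genes rose against MS but were lower than in PEG. Of 48 cyclins 32 rose and 3 fell, of 39 DNA replication genes 23 rose and 4 fell, and of 20 kinesins 13 rose and 1 fell, with medians of 0.96, 0.56 and 0.83. Against PEG the medians were -1.28, -0.95 and -1.13. Cyclin B2;3 match Manes.02G112900 (chromosome 2 from 8400672 to 8403718) had 1.45, 1.72 and 1.56 FPKM in the MS control, 23.0, 23.2 and 23.6 FPKM under ABA and 5.54, 5.58 and 6.48 FPKM under PEG. It was highest under ABA with no overlap among the groups, at 3.94 (SE 0.09, edgeR adjusted p = 1.43e-11) against MS and 2.19 against PEG. The other B-type and A-type cyclins named had PEG highest, such as Manes.05G133500, with 0.121, 0.151 and 0.172 FPKM in the MS control, 1.56, 1.54 and 1.59 FPKM under ABA and 4.13, 3.75 and 4.09 FPKM under PEG, at 3.41 (SE 0.22, edgeR adjusted p = 7.47e-08) against MS. The replication helicase subunit Manes.05G003100 had 1.28, 1.14 and 0.984 FPKM in the MS control, 3.26, 2.95 and 3.60 FPKM under ABA and 8.69, 8.48 and 9.80 FPKM under PEG, and kinesin Manes.03G133900 had 0.440, 0.394 and 0.389 FPKM in the MS control, 2.51, 2.23 and 2.16 FPKM under ABA and 8.91, 8.38 and 9.29 FPKM under PEG. In both the order was MS, ABA and PEG from lowest to highest, without overlap, with 1.60 (SE 0.13, edgeR adjusted p = 7.1e-07) and 2.55 (SE 0.11, edgeR adjusted p = 2.82e-09) for ABA against MS. Markers of dividing cells and of the shoot meristem had this order too, as given above, and their part in these values was not tested. Histone genes had 18 rises and 13 falls of 48 with a median of 0.14 against MS and -1.36 against PEG.

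Most ribosomal protein genes fell, by less than 2-fold in most cases. Of 375 genes, which include plastid and mitochondrial ribosomal proteins, 6 rose and 296 fell, 10 of them at least 2-fold, while 73 did not pass. The log2 fold changes ran from -2.19 to 2.06, with a median of -0.38. The named members with the lowest p-values included PSRP-3, a plastid-specific ribosomal protein (Manes.06G070400), with 154, 151 and 161 FPKM in the MS control and 79.9, 76.1 and 74.5 FPKM under ABA, and Manes.16G029300 of the S5 family with 272, 266 and 266 FPKM in the MS control and 126, 123 and 124 FPKM under ABA. They were lower in each ABA library, at -0.95 (SE 0.04, edgeR adjusted p = 6.94e-10) and -1.05 (SE 0.03, edgeR adjusted p = 3.83e-11). Abundant members changed less, with the S24e gene Manes.09G156500 at -0.52, the L22e gene Manes.01G219300 at -0.46 and the S4 gene Manes.08G097700 at -0.11. Against PEG 70 rose and 146 fell, with a median of -0.08, so the shift of the list was smaller with that reference. Tubulins, of the cytoskeleton, fell in 8 and rose in 6 of 19, for example Manes.05G200200, with 158, 158 and 157 FPKM in the MS control and 85.1, 85.8 and 83.1 FPKM under ABA and -0.83 (SE 0.03, edgeR adjusted p = 3.07e-10).

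**Figure D5:**
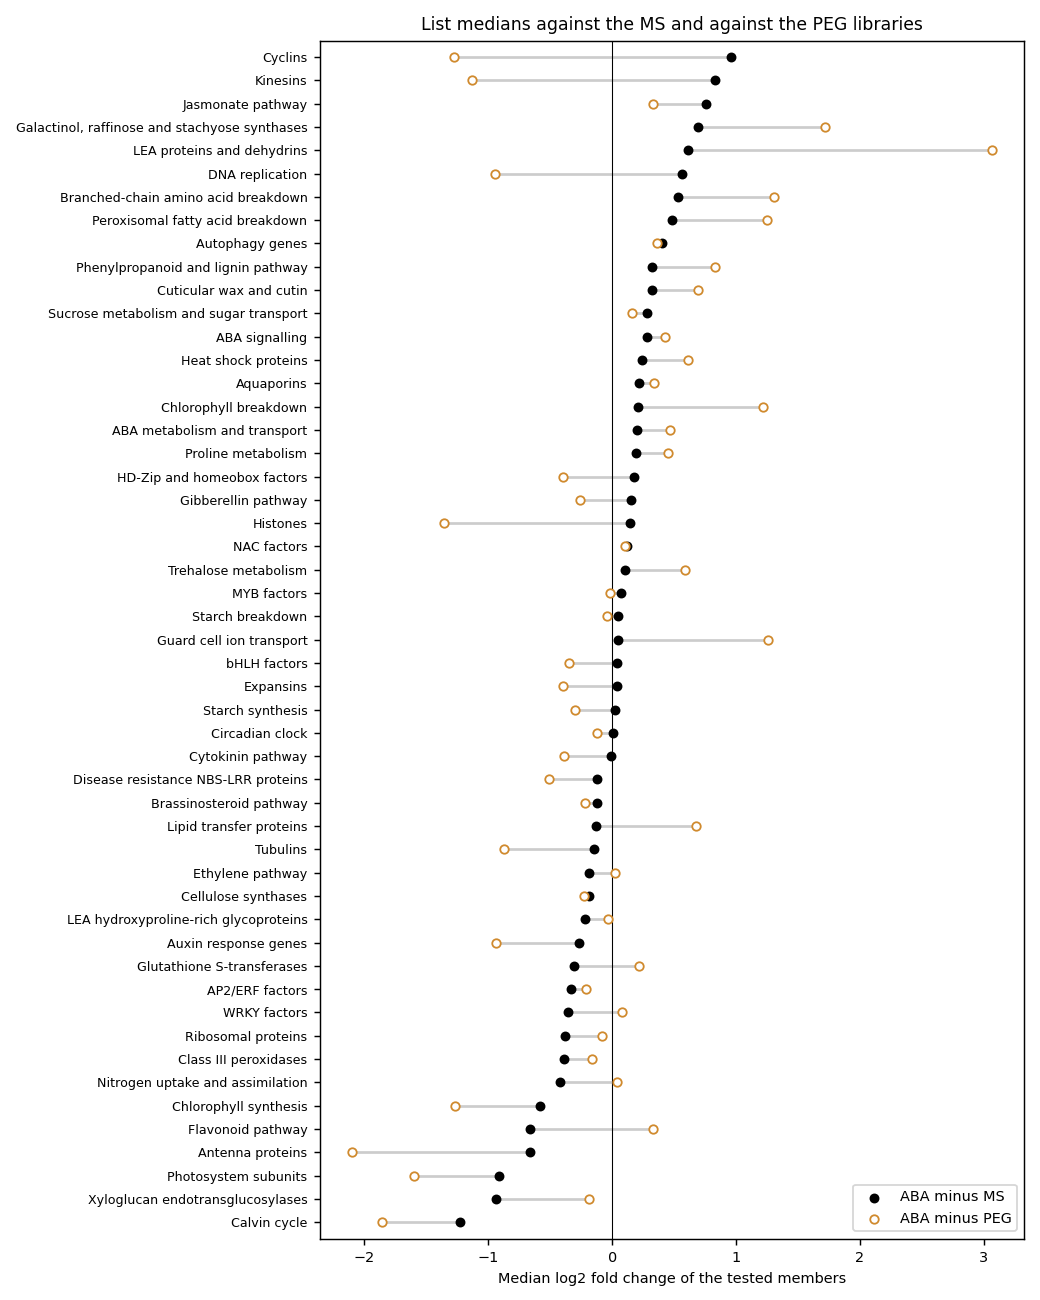
Median log2 fold change of the tested members of each of 51 gene lists under ABA against the MS libraries (black) and against the PEG libraries (orange rings), joined by a line. Calvin cycle, photosystem and antenna lists lie below 0 for both references and LEA, raffinose-family, amino acid and fatty acid breakdown lists above 0 for both. Cyclins, DNA replication, kinesins and histones lie above 0 against MS and below 0 against PEG.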

How the data were processed

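RNA-seq libraries of mature cassava leaves (3 ABA, 3 MS control, and 3 PEG as another reference) were analysed. Per the labels and the study's methods, seedlings of TM60444 were treated for 48 h in MS medium. The authors deposited 1 table with a read count and an FPKM value (fragments scaled by gene length and library depth) per gene and library. HISAT2 2.0.4 and StringTie 1.3.0 appear in the submitters' processing notes. The sources used here do not state how reads were counted, whether strand was used, or how reads that fit several copies were treated. The methods name the cassava genome v6.1, and gene coordinates are those of the table.

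Counts, as deposited, were tested with edgeR 4.0.16 (quasi-likelihood test, TMM scaling, filterByExpr) in R 4.3.3, in 1 fit of 9 libraries with the contrast ABA minus MS and, as an alternative, ABA minus PEG. P-values were adjusted by Benjamini-Hochberg over 23984 genes, with a threshold of 0.05. FPKM values were used as deposited, to show levels, and were not tested. Coefficients of the fit carry a small prior count. In a test on simulated data of 23557 genes, 200 genes were changed, drawn only from those with higher read counts. The ABA minus MS contrast found 65.7% of 1.5-fold, 94.0% of 2-fold and 100% of 4-fold changes. Of its 183 calls, 10 were on genes left as they were. Recovery for genes with few reads was not tested. Far fewer genes were changed than passed in the real libraries, so the share of false calls does not carry over to them.

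The 51 lists were matched by the nearest Arabidopsis gene or its description in the table. Members and lists were chosen with earlier results of these data known. After the descriptions had been read, but not chosen on values, terms that caught other families were excluded, the LEA hydroxyproline-rich glycoproteins were set apart as a list, and the ribosomal list was renamed because it also holds organellar proteins. Named genes were every tested ABA signalling, metabolism and transport gene, up to 6 members with the smallest p and up to 4 with the highest FPKM of each other list, and, of described genes, the 12 largest changes each way with separate FPKM ranges and a mean of at least 5 FPKM, pectin methylesterases left out. The text gives a part of them. Copies that share a name with these, and a pair of marker genes, are also given, and were chosen after their values were seen. Tested alternatives were DESeq2 1.42.0 (size factors, Wald test), no scaling, 2 other filters, a replicate block, the ABA and MS libraries alone, and leaving out each library. Median chi-square values between libraries of a group were 0.662 to 0.843, against 0.455 from sampling alone, and all 6 libraries were kept as separate replicates. Replicates numbered alike did not deviate together, with correlations of -0.005 to -0.038 between ABA and MS, so the numbers were not used as pairs.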

Additional observations from a re-analysis of the deposited data

How the results depend on the processing

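The count of genes that passed the test was within 1.5 times 15894 under every alternative, from 11991 with a mean of at least 5 FPKM to 17911 with PEG as the reference. Without each library in turn it was 15056 to 15276. With the replicate block it was 15663 (7772 rose and 7891 fell), and no list median moved by 0.1 or more. The count of at least 2-fold changes fell to 2298 (1151 up and 1147 down) with a mean of at least 5 FPKM, where fewer genes are tested, and with PEG as the reference 3841 genes were at least 2-fold lower. With no scaling beyond library size the median of all genes moved from -0.00 to -0.07, with 6977 genes that rose and 9009 that fell.

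The reference group changed the most. With PEG in place of MS the list medians changed sign for Cyclins (-1.28), DNA replication (-0.95), Ethylene pathway (0.02), Flavonoid pathway (0.33), Gibberellin pathway (-0.26), Glutathione S-transferases (0.22), HD-Zip and homeobox factors (-0.40), Histones (-1.36), Kinesins (-1.13), Lipid transfer proteins (0.68), Nitrogen uptake and assimilation (0.04) and WRKY factors (0.08), counting lists whose median against MS was at least 0.1 in size. Of 284 genes that the text names, 25 changed direction. Genes lower than in MS but with a positive log2 fold change against PEG were Manes.01G003800 0.14, Manes.01G112700 0.69, Manes.02G089200 0.87, Manes.03G167400 0.20, Manes.04G068200 0.62, Manes.06G141200 0.06, Manes.07G081100 1.39, Manes.08G097700 0.17, Manes.09G049900 1.35, Manes.10G045000 0.13, Manes.10G067700 0.98, Manes.11G063600 0.82, Manes.11G075100 0.62, Manes.12G112300 8.67, Manes.12G146600 0.11, Manes.13G065800 0.54 and Manes.15G120900 0.55. Genes higher than in MS with a negative value against PEG were Manes.03G018600 -1.99, Manes.03G133900 -1.75, Manes.04G106000 -1.57, Manes.04G106100 -0.72, Manes.05G003100 -1.26, Manes.05G133500 -1.15, Manes.06G173000 -0.01 and Manes.15G122400 -1.12. With a mean of at least 5 FPKM the medians changed sign for ABA metabolism and transport (-0.18), Auxin response genes (0.12), the Gibberellin pathway (-0.03) and Histones (-0.06). The Brassinosteroid pathway changed sign with DESeq2's Wald test (0.01) and with no filter beyond 1 count (0.03), and Cellulose synthases with DESeq2's Wald test (0.03). The cause was not tested. No gene named changed direction under the alternatives other than the PEG reference. Leaving out the genes with libraries of a group at least 8-fold apart, a step chosen after seeing the data, gave 15879 genes that passed. The total counts limit what can be seen of genes near 0 FPKM, and a gene that did not pass is not shown to be unchanged.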
